A study of Mus musculus with 12 samples.

Results

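Ribosomal protein genes were described in the hearts of 12 mice, as 2 classes: 89 genes of the cytosolic ribosome and 75 genes of the mitochondrial ribosome. The 164 genes were chosen by symbol from the 55487 genes of the deposited expression table, namely the numbered Rpl and Rps genes with Rplp0, Rplp1, Rplp2 and Rpsa for the cytosolic class, and the numbered Mrpl and Mrps genes for the mitochondrial class. All hearts were from wild-type mice, randomised into 4 groups of 3. The I/R+B12 mice had the left anterior descending coronary artery occluded for 45 min and then reopened for 24 h (ischemia/reperfusion, I/R), after 7 days of drinking water with 50 mg/L vitamin B12 (about 4 mL per day). The I/R mice had the same injury on normal water. The Sham+B12 mice had the same B12 water and the operation without occlusion, and the Sham mice had that operation on normal water. The labels give heart as the tissue, with no region, and no age, sex or strain was used here. Nothing beyond the separate mice says how the libraries were handled, so p-values measure the spread between these mice and their libraries together.

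The cytosolic ribosome translates the messages of nuclear genes. Its large subunit is built from Rpl proteins and its small subunit from Rps proteins, assembled on ribosomal RNA in the nucleolus. Many of its genes start transcription within a run of pyrimidines, and the resulting terminal oligopyrimidine (TOP) messages are translated under control of the growth kinase mTOR. The mitochondrial ribosome translates only the few messages of mitochondrial DNA, all of which encode subunits of the respiratory chain and ATP synthase. Its Mrpl and Mrps proteins are encoded in the nucleus and imported. Cardiomyocytes, the contracting cells of the heart, are dense in mitochondria, whereas dividing and secreting cells depend on a large supply of cytosolic ribosomes. In bulk heart RNA a change in the number of cells of a type and a change in RNA per cell cannot be told apart.

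The start regions of 10 members are shown here because the classes differ most plainly at this position and because 6 of them, added after their values were seen, are the members whose differences passed the test. Each sequence runs 5′ to 3′ on the gene's strand, from 40 bases before to 30 bases after the start site of RefSeq on GRCm38.p6. Capitals mark matches to the motifs named afterwards. The first pair, Rps27 and Rpl13a, are among the most abundant cytosolic members with a pyrimidine run. The regions of Rps15, Rps2, Mrpl42 and Mrpl30, also among the highest members of their classes, held none of these motifs and are not shown. Of the mitochondrial members shown, Mrps21 holds a pyrimidine run as well as an ETS motif.
Rps27 (chr3:90213619-90213688, minus strand): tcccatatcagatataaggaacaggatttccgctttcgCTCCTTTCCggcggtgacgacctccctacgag
Rpl13a (chr7:45128716-45128785, minus strand): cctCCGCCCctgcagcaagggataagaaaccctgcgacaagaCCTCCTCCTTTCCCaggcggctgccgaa
Rpl7l1 (chr17:46782627-46782696, minus strand): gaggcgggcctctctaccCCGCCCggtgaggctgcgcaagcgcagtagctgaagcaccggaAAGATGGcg
Rpl5 (chr5:107900488-107900557, plus strand): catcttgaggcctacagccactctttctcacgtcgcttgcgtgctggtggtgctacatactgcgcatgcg
Rpl12 (chr2:32961672-32961741, plus strand): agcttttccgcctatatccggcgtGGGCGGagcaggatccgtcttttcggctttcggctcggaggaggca
Mrps21 (chr3:95871485-95871554, minus strand): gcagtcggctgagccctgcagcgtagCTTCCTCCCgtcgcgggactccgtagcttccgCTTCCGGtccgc
Mrpl52 (chr14:54426869-54426938, plus strand): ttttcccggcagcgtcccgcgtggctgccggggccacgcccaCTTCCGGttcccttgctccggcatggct
Mrpl34 (chr8:71464886-71464955, plus strand): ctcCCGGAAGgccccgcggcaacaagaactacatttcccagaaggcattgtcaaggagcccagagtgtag
Mrpl36 (chr13:73330969-73331038, plus strand): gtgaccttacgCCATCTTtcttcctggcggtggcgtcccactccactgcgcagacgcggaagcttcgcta
Mrps27 (chr13:99344746-99344815, plus strand): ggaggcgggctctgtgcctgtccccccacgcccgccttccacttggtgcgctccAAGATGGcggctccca

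Promoters, here 250 bases before to 50 after the start, were found for 130 of the 164 members by symbol. A pyrimidine run, defined as 8 or more C or T in a row on the sense strand with a base within 10 of the start, was present in 28 of 64 cytosolic promoters (43.8%). It was present in 9 of 66 mitochondrial promoters (13.6%), where 13.9% of all 27025 promoters held one. The TOP-like start was thus far more frequent in the cytosolic class than in promoters in general, and in the mitochondrial class about as frequent.

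Both classes held the ETS motif CCGGAAG on either strand more often than promoters in general. It was found in 39.1% of cytosolic and 33.3% of mitochondrial promoters, against 9.12% of all promoters and 18.3% of those of tested genes. The YY1 motif AAGATGG was found in 14.1% of cytosolic and 18.2% of mitochondrial promoters, against 6.48% of all and 7.23% of those of tested genes. The GC box GGGCGG was held by 59.4% of cytosolic and 48.5% of mitochondrial promoters, against 35.9% of all promoters and 64.1% of those of tested genes. The E-box CACGTG and the palindromic NRF1 motif were rare in both classes. The E-box was held by 7.81% and 6.06%, against 7.24% of all promoters and 10.4% of those of tested genes. The NRF1 motif was held by 1.56% and 4.55%, against 0.977% of all and 2.02% of those of tested genes. These matches are a description of letters in a window. The pyrimidine run can overlap the other motifs.

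Expression was given as FPKM, fragments scaled to transcript length and to the size of the library, and was analysed as log2(FPKM + 1). A gene was tested when it reached an FPKM of 1 in at least 3 libraries, which 13001 genes did. All 75 mitochondrial and 83 cytosolic members were tested. The 6 others lay at or near 0: Rpl10l and Rpl32l were listed at 0 in every library, Rpl6l, Rps3a2 and Rps3a3 had mean levels under 0.1 FPKM, and Rpl39l reached at most 0.37 FPKM. Depth, estimated from the steps between low values, was 24.5 to 29.0 M fragments per library.

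2 libraries went against their labels on markers of inflammatory cells. On a list of 13 neutrophil markers, scored as the mean centred log2 value, the I/R+B12 libraries had 2.05, 3.54 and 0.18, the I/R libraries had 2.53, 2.24 and -1.67, Sham+B12 had -2.12, -1.20 and -1.84, and Sham had -1.79, -1.71 and -0.19. The library labelled I/R 3 therefore lay with the sham libraries and the library labelled Sham 3 above the other sham libraries. Class results that use them are also given without both. All 14 cardiomyocyte markers, among them Myh6, Tnnt2 and Ttn, were measured in every library, with summed levels of 54117 to 75494 FPKM in I/R+B12, 49688 to 68095 in I/R, 71445 to 78081 in Sham+B12 and 68071 to 76962 in Sham.

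The cytosolic class was the more abundant. Its tested members had a median level of 496.4 FPKM (13.07 to 1728), the mitochondrial members 46.86 FPKM (4.476 to 484.1), and all tested genes 7.363 FPKM. Rplp1, a protein of the acidic stalk that recruits elongation factors, was the highest at 1728 FPKM, followed by Rps15 at 1674 and Rps27 at 1627 FPKM. Of the mitochondrial class Mrpl42 (484.1 FPKM), Mrps21 (287.6 FPKM) and Mrpl30 (230.6 FPKM) were the highest, and Mrpl19 (4.476 FPKM), Mrpl23 (5.829 FPKM) and Mrpl1 (6.12 FPKM) the lowest.

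Only 7 of 83 cytosolic members lay under 100 FPKM in mean level, against 61 of 75 mitochondrial ones. Among these 7 were Rpl12 at 13.07 FPKM and Rpl5 at 14.16 FPKM, although both encode proteins of every cytosolic ribosome. Reads can be split between a gene and its copies. Of the members Rps4l and Rps12l1 are annotated as pseudogenes, as are the untested Rpl32l, Rpl6l, Rps3a2 and Rps3a3. The table held 319 genes named as ribosomal protein pseudogenes, and 20 of them had a mean of 1 FPKM or more, led by Rpl10-ps3 (477.4), Rpl31-ps8 (426.5) and Rps23-ps1 (404.0). For this reason, and because cytosolic transcripts are short (median 774 nt, against 1230 nt for the mitochondrial class and 2522 nt for all tested genes), the order of levels between members is less certain than the same gene's difference between libraries.

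**Figure D1:**
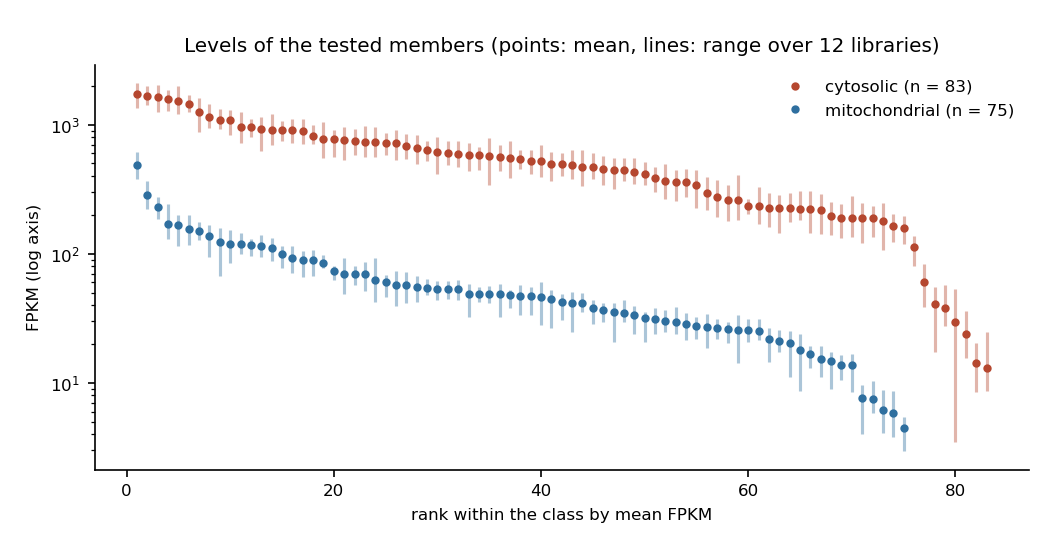
Mean FPKM (log axis) of the 83 cytosolic and 75 mitochondrial tested members, ranked within each class, with a line for the range over the 12 libraries. The mitochondrial curve lies below the cytosolic one at every rank, and the cytosolic curve drops at its end to the 7 members under 100 FPKM.

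Over the 12 libraries the cytosolic members varied more than the mitochondrial ones. The median standard deviation (SD) of log2(FPKM + 1) was 0.262 for cytosolic members, 0.190 for mitochondrial members and 0.304 for all tested genes. The steadiest were Rpl28 (0.142), Rpl36 (0.149) and Rps15 (0.156) in the cytosolic class and Mrps7 (0.114), Mrps15 (0.122) and Mrpl9 (0.123) in the mitochondrial one. The most variable were Rps12l1 (1.137), Rpl22l1 (0.505) and Rpl7l1 (0.449), and Mrpl49 (0.396), Mrpl23 and Mrpl17. Rps12l1, annotated as a processed pseudogene of chromosome 7, was at 3.5 FPKM in I/R+B12 1 and 4.94 in Sham 1 but at 53.0 in Sham 3, so its spread did not follow the groups.

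The members of the cytosolic class moved up and down together from library to library. Their mean centred level was 0.00, 0.20 and 0.09 in I/R+B12 1, 2 and 3, and 0.29, 0.26 and -0.03 in I/R 1, 2 and 3. It was -0.36, 0.08 and -0.28 in Sham+B12 1, 2 and 3, and -0.28, 0.23 and -0.19 in Sham 1, 2 and 3. The 6 libraries of injured hearts thus lay at or above -0.03, and 4 of the 6 sham libraries lay at or under -0.19, with Sham 2 and Sham+B12 2 as high as injured hearts.

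The mitochondrial class was flatter. Its mean centred level was -0.04, -0.34 and 0.01 in the I/R+B12 hearts, 0.02, -0.01 and 0.06 in I/R, 0.01, 0.11 and 0.09 in Sham+B12, and 0.08, 0.06 and -0.06 in Sham. Only I/R+B12 2 departed by more than 0.11 from the mean. That library had the lowest value of 51 of the 75 mitochondrial members (68%), while it held the lowest value of 35.1% of all tested genes.

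The summed level of the cytosolic members was 9.96, 12.5 and 9.35 times that of the mitochondrial members in I/R+B12, 11.4, 11.1 and 8.78 times in I/R, 7.34, 9.04 and 7.40 times in Sham+B12, and 7.65, 10.2 and 8.61 times in Sham. The cytosolic members took 5.12% to 5.26% of the FPKM sum of I/R+B12 libraries, 4.66% to 6.18% of I/R, 4.06% to 5.11% in Sham+B12 and 4.41% to 5.60% in Sham. The ratio of the classes did not overlap between I/R+B12 and Sham+B12, and it overlapped between I/R and Sham.

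**Figure D2:**
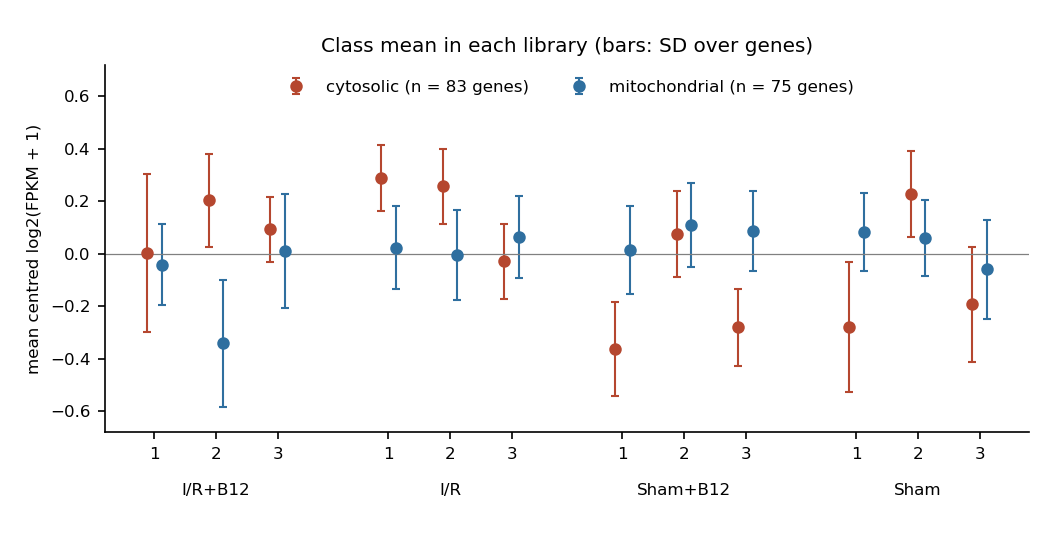
Mean centred log2(FPKM + 1) of each class in each of the 12 libraries, with bars for the SD over genes. The cytosolic class (left point of each pair) is low in 4 of 6 sham libraries, and the mitochondrial class is near 0 except in I/R+B12 2 at -0.34.

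Transcript length moved in part with the cytosolic level. The 989 tested genes outside the classes with transcripts of at most 774 nt had mean centred levels of 0.02, 0.04 and 0.01 in the I/R+B12 hearts, 0.10, 0.15 and 0.03 in I/R, -0.19, 0.09 and -0.10 in Sham+B12, and -0.08, 0.09 and -0.17 in Sham. Sham 2 and Sham+B12 2 were thus high for other short genes too. The median difference of these short genes was 0.01 in I/R+B12 against Sham+B12 and 0.08 in I/R against Sham. Results of a fit with the trend over transcript length removed are given below. The part of length as a cause of the cytosolic differences was not tested.

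The comparison of I/R+B12 with Sham+B12 asked what injury changed under B12. Few single members passed the test, and the medians of the classes lay on opposite sides of 0. Of 83 cytosolic members 80 had a positive difference, with a median of 0.28 on the log2(FPKM + 1) scale, and of 75 mitochondrial members 63 had a negative one, with a median of -0.18. All tested genes had a median of -0.02, with 48.1% positive. By limma with Benjamini-Hochberg adjustment over all 13001 genes, 10.4% of all genes were called in either direction (adjusted p under 0.05). In the cytosolic class 3 members were called higher and 0 lower, where 6.78% of all genes were called higher. In the mitochondrial class 3 members were called lower and 0 higher, where 3.62% of all genes were called lower. The called shares of both classes were therefore near or below the background.

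The direction of the class medians was the same in both subunits. The median was 0.28 for 49 large and 0.28 for 34 small subunit members of the cytosolic class, and -0.14 for 49 large and -0.21 for 26 small subunit members of the mitochondrial class. No overlap between the groups was seen for 25 cytosolic members, all higher in I/R+B12 (30.1% of the class), where 19.1% of all genes did so. The same held for 21 mitochondrial members lower and 3 higher in I/R+B12, where 13.2% of all genes were lower and 19.1% higher without overlap. The 3 higher mitochondrial members were Mrpl20, Mrpl33 and Mrpl52.

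The calls depended on single libraries, and the size of the mitochondrial median in part on I/R+B12 2. Without I/R+B12 2 the mitochondrial median was -0.08, with 50 of 75 negative, and 0 members of either class were called. The median of all tested genes then rose too, from -0.02 to 0.05, with 55% positive. Without I/R+B12 1 the mitochondrial median was -0.21 and 15 mitochondrial members were called lower, with 3 cytosolic members called higher. All tested genes then had a median of -0.12, with 41.2% positive. The cytosolic median was 0.27 and 80 of 83 differences were positive without I/R+B12 2. Leaving out Sham+B12 1, 2 or 3 also left 0 called members in both classes. Leaving out I/R 1, I/R 2, Sham 1 or Sham 2, which enter only through the shared spread, left 1, 1, 2 and 2 cytosolic and 0 mitochondrial members called. Without I/R+B12 3 or Sham 3 there were 7 and 5 mitochondrial members called, and without I/R 3 there were 2. Without both libraries that went against their labels there were 4 in each class. The share of all genes called in each of these fits is not given here, so these counts stand without that background.

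The called cytosolic members were Rpl7l1, Rpl12 and Rpl5. Rpl7l1 is a relative of Rpl7, and its yeast counterpart Rlp7 acts in assembly of the large subunit. Rpl7l1 (ENSMUSG00000063888, chr17:46773907-46782672, minus strand, mm10) had 26.4, 36.0 and 34.2 FPKM in I/R+B12, against 16.6, 18.6 and 16.2 FPKM in Sham+B12. It had 34.9, 31.0 and 21.9 FPKM in I/R, against 15.5, 19.7 and 17.9 FPKM in Sham. All 6 libraries of injured hearts, the library labelled I/R 3 included, lay above all 6 sham libraries. The difference was 0.86 under B12 (standard error (SE) 0.18, adjusted p 0.0255) and 0.67 on normal water (SE 0.18, adjusted p 0.378).

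Rpl12, a protein at the base of the large subunit's stalk, had 15.7, 24.9 and 12.95 FPKM in I/R+B12, against 10.1, 8.85 and 8.70 FPKM in Sham+B12. The groups did not overlap, and I/R+B12 2 stood highest. The difference was 0.84 (SE 0.24, adjusted p 0.0492). On normal water Rpl12 had 16.6, 15.4 and 9.85 FPKM in I/R, against 9.27, 12.5 and 12.2 FPKM in Sham, and the groups overlapped.

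Rpl5 binds 5S ribosomal RNA and, outside the ribosome, the p53 regulator Mdm2. It had 17.8, 20.5 and 15.9 FPKM in I/R+B12, against 8.57, 12.8 and 8.53 FPKM in Sham+B12 (difference 0.81, SE 0.22, adjusted p 0.0420). On normal water it had 19.26, 17.98 and 13 FPKM in I/R, against 8.68, 14.8 and 12.2 FPKM in Sham, where Sham 2 lay above I/R 3. The exons of Rpl5 share 953 bases with Fam69a on the opposite strand and those of Rpl12 share 56 bases with Lrsam1 and 130 with the small nucleolar RNA Snora65. Without strand, reads of a gene and of an overlapping neighbour cannot be told apart, and whether counting used strand is not given in the sources used here. All 3 called members were thus cytosolic genes of low level in these files.

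The called mitochondrial members were Mrpl34, Mrpl36 and Mrps27. Mrpl34 and Mrpl36 are small proteins of the large subunit with bacterial counterparts, and Mrps27 is a small subunit protein with none. Mrpl34 (ENSMUSG00000034880, chr8:71464959-71465747, plus strand, mm10) had 112.0, 67.0 and 101.4 FPKM in I/R+B12, against 137.1, 157.5 and 136.6 FPKM in Sham+B12 (difference -0.65, SE 0.19, adjusted p 0.0487). Mrpl36 had 38.2, 24.9 and 27.7 FPKM in I/R+B12, against 40.2, 48.6 and 47.5 FPKM in Sham+B12 (-0.59, SE 0.17, adjusted p 0.0466). Mrps27 had 24.3, 18.6 and 24.8 FPKM in I/R+B12, against 33.0, 30.3 and 34.0 FPKM in Sham+B12 (-0.51, SE 0.14, adjusted p 0.0458). The groups did not overlap for any of the 3, and I/R+B12 2 was the lowest library of each.

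On normal water none of the 3 was called. Mrpl34 had 116.8, 122.2 and 145.2 FPKM in I/R, against 145.7, 132.7 and 111.8 FPKM in Sham. Mrpl36 had 50.1, 49.3 and 43.6 FPKM in I/R, against 47.2, 48.2 and 37.8 FPKM in Sham. Mrps27 had 24.4, 24.5 and 26.2 FPKM in I/R, against 33.6, 28.1 and 24.95 FPKM in Sham. The groups overlapped for each, and the differences were -0.02, 0.11 and -0.19. The exons of Mrpl36 share 30 bases with Ndufs6, and those of Mrps27 share 506 bases with a noncoding transcript, both on the opposite strand.

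**Figure D3:**
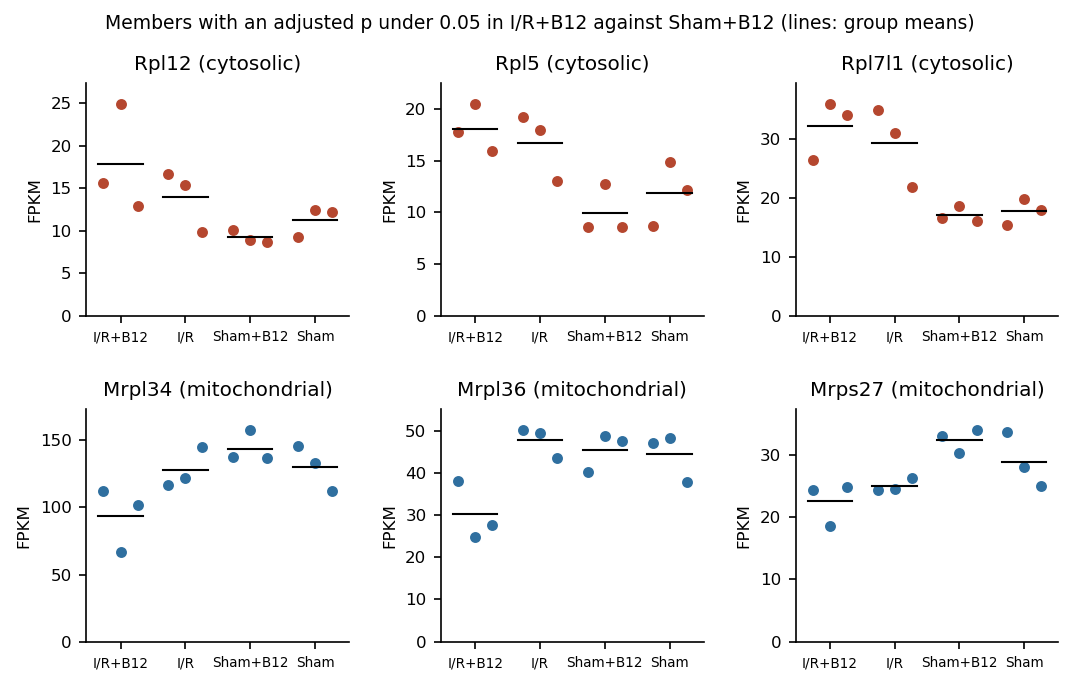
FPKM in each library of the 6 members with an adjusted p under 0.05 in I/R+B12 against Sham+B12, with a line at each group mean and panels starting at 0. In each panel the 3 I/R+B12 points do not overlap the 3 Sham+B12 points, and Rpl7l1 alone of the 6 also separates I/R from Sham.

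In I/R against Sham, the injury on normal water, no gene of either class and no other gene was called (0% of 13001). With library weights, which count uneven libraries less, 45 cytosolic members were called higher and 1 lower and 6 mitochondrial members higher and 11 lower, where 27.2% of all genes were called higher and 6.75% lower. Without weights, at an unadjusted p under 0.05 there were 13 cytosolic members higher and 0 lower (10.6% of all genes were higher), and 1 mitochondrial member higher and 1 lower. Of 83 cytosolic members 80 had a positive difference (median 0.27), and of all genes 69.1% had one (median 0.13). The mitochondrial members were split into 38 positive and 37 negative (median 0.01), where 30.9% of all genes were negative. With Sham 3 and I/R 3 both left out the cytosolic median was 0.30, with 81 of 83 positive, and the mitochondrial median -0.08, with 28 of 75 positive. All genes then had a median of 0.17, with 68.7% positive. The cytosolic median was 0.42 without Sham 2 and 0.18 without Sham 1. With median-ratio scaling, which sets the median of all genes to 0.00, it was 0.12, and with the trend over transcript length removed it was 0.15.

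The groups did not overlap for 6 cytosolic members, all higher in I/R (18.8% of all genes), and for 5 mitochondrial members higher and 7 lower (3.6% of all genes were lower). The 6 were Rpl7l1, Rpl36a, Rpl4, Rpl7, Rpl22 and Rpl21. Rpl36a, a small protein of the large subunit, had 289.7, 275.8 and 247.8 FPKM in I/R, against 159.3, 242.4 and 173.4 FPKM in Sham (0.52, SE 0.18, adjusted p 0.389). Rpl4, a core protein that lines the exit tunnel of the large subunit, had 445.0, 434.1 and 359.2 FPKM in I/R, against 267.5, 329.8 and 318.6 FPKM in Sham (0.43, SE 0.16, adjusted p 0.393). In both genes Sham 2 was the highest Sham library and lay under I/R 3, the lowest I/R library.

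Among mitochondrial members Mrpl52, a large subunit protein, went with the cytosolic class. It had 221.6, 243.2 and 188.5 FPKM in I/R, against 131.1, 160.8 and 152.3 FPKM in Sham (0.55, SE 0.13, adjusted p 0.378). Under B12 it had 186.4, 180.8 and 160.2 FPKM in I/R+B12, against 135.0, 130.5 and 147.2 FPKM in Sham+B12 (0.35, SE 0.13, adjusted p 0.0898). The groups did not overlap on either water. Mrps23 had 133.3, 115.1 and 152.0 FPKM in I/R, against 176.9, 176.5 and 173.7 FPKM in Sham (-0.40, SE 0.14, adjusted p 0.392), and Mrps30 had 13.5, 12.4 and 10.6 FPKM in I/R, against 16.5, 14.04 and 14.3 FPKM in Sham (-0.28, SE 0.13, adjusted p 0.436). Both were lower in every I/R library than in any Sham library.

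**Figure D4:**
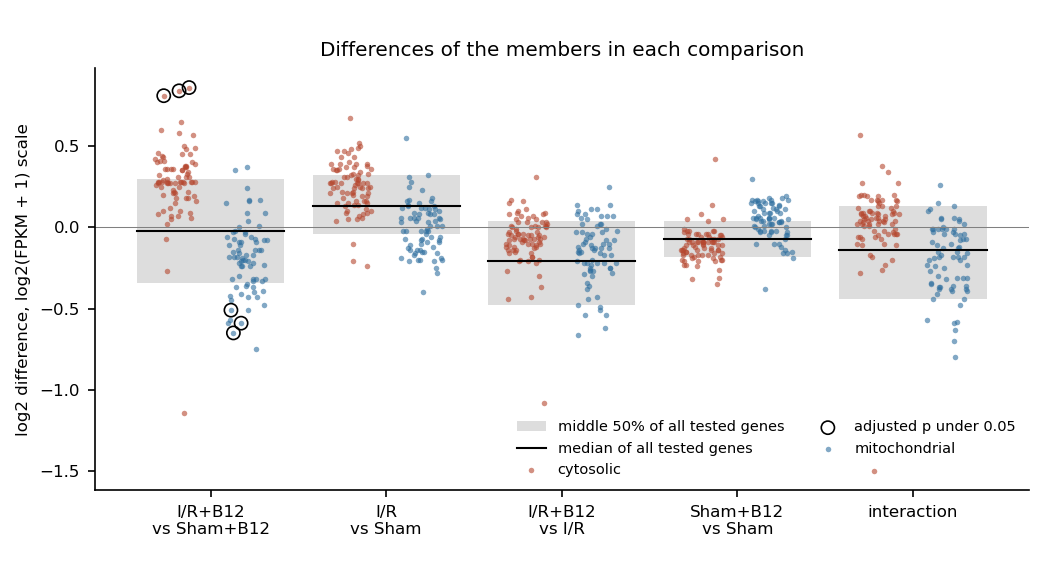
Difference of each tested member on the log2(FPKM + 1) scale in 5 comparisons, cytosolic left and mitochondrial right, over a grey band for the middle 50% of all tested genes and a line for their median. Cytosolic points lie mostly above the median line in both comparisons of injured with sham hearts, and circles mark the 6 members with an adjusted p under 0.05.

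The comparison of I/R+B12 with I/R asked what B12 changed in injured hearts. No gene was called (0% of 13001). With library weights 2 cytosolic members were called lower, and 2 mitochondrial members higher and 6 lower, where 4.32% of all genes were called higher and 29% lower. Without weights, the median was -0.06 over cytosolic members, 59 of 83 negative, and -0.13 over mitochondrial members, 58 of 75 negative, but it was -0.21 over all tested genes, 71.8% of them negative. Relative to that general shift neither class stood lower, and with median-ratio scaling, which takes the shift away, the medians were 0.19 and 0.11. Without I/R 3 and Sham 3 the medians as deposited were -0.16, 77 of 83 negative, and -0.12, 54 of 75 negative. All genes then had a median of -0.24, with 25.2% positive, so neither class stood lower than the general shift. At an unadjusted p under 0.05 there were 0 cytosolic members in either direction and 10 mitochondrial members lower, where 3.9% of all genes were higher and 24.6% lower. The groups did not overlap for 7 cytosolic and 12 mitochondrial members, all lower with B12, where 18.8% of all genes were lower without overlap.

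Mrpl36 had the smallest p of the members here, with 38.2, 24.9 and 27.7 FPKM in I/R+B12, against 50.1, 49.3 and 43.6 FPKM in I/R (-0.66, SE 0.17, adjusted p 0.0822). Mrpl24 had 47.0, 32.3 and 38.8 FPKM in I/R+B12, against 52.6, 58.4 and 53.8 FPKM in I/R (-0.49, SE 0.14, adjusted p 0.0887). Mrpl21 had 46.0, 26.4 and 33.8 FPKM in I/R+B12, against 48.8, 50.6 and 52.2 FPKM in I/R (-0.54, SE 0.17, adjusted p 0.0962). All 3 are large subunit proteins with bacterial counterparts, and in each I/R+B12 2 was the lowest and I/R+B12 1 the nearest to the I/R libraries. The exons of Mrpl24 share 594 bases with Rrnad1 on the opposite strand. Without I/R+B12 1, 10 mitochondrial members were called lower, and without I/R+B12 2, 0 were, with the share of all genes not set beside them.

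Of the cytosolic class Rpl10, Rpl3 and Rpl22 had the smallest p in that comparison (-0.44, -0.43 and -0.37, adjusted p 0.183, 0.187 and 0.195). Rpl10, which joins the large subunit late in its assembly, had 205.9, 152.6 and 157.2 FPKM in I/R+B12, against 225.3, 281.9 and 193.9 FPKM in I/R. Rpl22 had 268.2, 281.4 and 257.2 FPKM in I/R+B12, against 370.6, 347.4 and 326.0 FPKM in I/R. The groups overlapped for Rpl10 and did not for Rpl22.

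In Sham+B12 against Sham, B12 without injury, no gene was called (0% of 13001), and at an unadjusted p under 0.05 no member of either class was past the threshold (0.508% of all genes were higher and 1.18% lower). The cytosolic median was -0.11, 77 of 83 negative, beside -0.07 over all genes, and the mitochondrial median 0.05, 52 of 75 positive, where 32.1% of all genes were positive. The groups overlapped for all cytosolic members. They did not overlap for Mrps5, Mrps17, Mrps23 and Mrps28, which were higher in Sham+B12 (1.54% of all genes), and for Mrpl9, which was lower (8.98% of all genes). The cytosolic median was 0.04 without Sham 2 and -0.25 without Sham+B12 2, the high libraries of their groups. Without both it was -0.09, with 69 of 83 negative, beside -0.07 over all genes. Without Sham 3 and I/R 3 the cytosolic median was -0.18 and the mitochondrial median 0.00, beside -0.07 over all genes. The smallest p values were those of Rps4l (-0.35), Rps12 (-0.32), Rps27a (-0.31), Mrpl46 (0.30), Mrpl47 (-0.38) and Mrpl48 (-0.19), each with an adjusted p of 0.999.

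The interaction, which is the difference of injured from sham hearts under B12 minus that on normal water, was called for no gene (0% of 13001), and with library weights for 4 mitochondrial members, all lower, where 11.7% of all genes were. Without weights, at an unadjusted p under 0.05 there were 7 mitochondrial members lower and 0 cytosolic members in either direction (3.41% of all genes were higher and 8.86% lower). Its median was 0.05 over cytosolic members and -0.18 over mitochondrial members, 63 of 75 negative, against -0.14 over all genes, 36.3% of which were positive. Without Sham 3 and I/R 3 it was 0.01 over cytosolic members and -0.10 over mitochondrial members, 52 of 75 negative, against -0.18 over all genes. The smallest p in the mitochondrial class were those of Mrpl24 (-0.58, SE 0.19, adjusted p 0.387), Mrpl36 (-0.70, SE 0.24, adjusted p 0.391) and Mrpl49 (-0.80, SE 0.33, adjusted p 0.401). In the cytosolic class they were those of Rpl12 (0.57, SE 0.34, adjusted p 0.461), Rps12l1 (-1.50, SE 1.19, adjusted p 0.560) and Rps4l (0.38, SE 0.30, adjusted p 0.559). Without I/R+B12 1, 5 mitochondrial members were called in the interaction, with the share of all genes not set beside them. A different response of the classes with and without B12 was thus not detected gene by gene in the unweighted fit of all libraries. The 4 comparisons share libraries in pairs: the I/R+B12 libraries enter the comparisons with Sham+B12 and with I/R, and the Sham libraries those of I/R and of Sham+B12.

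Members with a paralog were compared with their parent gene in each library, as a ratio of FPKM with no test. Rpl3l replaces Rpl3 in ribosomes of striated muscle. The ratio of Rpl3l to Rpl3 was 0.460, 0.681 and 1.15 in the I/R+B12 hearts, 0.389, 0.451 and 0.699 in I/R, 1.16, 0.806 and 1.18 in Sham+B12, and 1.04, 0.756 and 0.646 in Sham. The parent was above its muscle paralog in 5 of 6 injured hearts and in 3 of 6 sham hearts. The highest ratio of injured hearts was in I/R+B12 3, the injured library with B12 that scored lowest for neutrophil markers.

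Both genes entered that ratio. Rpl3l had 134.8, 171.1 and 235.8 FPKM in I/R+B12, against 213.0, 204.6 and 218.7 FPKM in Sham+B12. Rpl3 had 293.3, 251.0 and 204.9 FPKM in I/R+B12, against 183.8, 253.9 and 185.6 FPKM in Sham+B12. On normal water Rpl3l had 157.4, 166.0 and 175.4 FPKM in I/R, against 219.4, 200.6 and 162.5 FPKM in Sham. Rpl3 had 404.6, 368.1 and 250.9 FPKM in I/R, against 210.8, 265.2 and 251.4 FPKM in Sham. Rpl3l was the 1 cytosolic member with a negative difference in both comparisons of injured with sham hearts (-0.27 and -0.21, adjusted p 0.323 and 0.631), and the groups overlapped. The cardiomyocyte marker score moved with the ratio: it was -0.27, -0.28 and 0.22 in the I/R+B12 hearts, -0.35, -0.40 and 0.06 in I/R, 0.27, 0.03 and 0.30 in Sham+B12, and 0.27, 0.01 and 0.13 in Sham. The part of cell makeup in the ratio was not tested.

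The ratio of Rpl7l1 to Rpl7 was 0.0699, 0.0887 and 0.0949 in I/R+B12, against 0.0644, 0.0494 and 0.0584 in Sham+B12. It was 0.0804, 0.0698 and 0.0527 in I/R, against 0.0535, 0.0509 and 0.0561 in Sham. Under B12 the ratios of the groups did not overlap, and on normal water I/R 3 lay inside the Sham range. Rpl7 itself had 377.5, 405.3 and 359.9 FPKM in I/R+B12, against 257.7, 375.8 and 276.9 FPKM in Sham+B12 (0.35, SE 0.15, adjusted p 0.144).

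The other pairs showed no separation by group. The mean log2 ratio of Rps27l, a p53-responsive relative of Rps27, to Rps27 was -3.09 ± 0.29 in the I/R+B12 hearts, -3.05 ± 0.10 in I/R, -3.09 ± 0.13 in Sham+B12 and -3.04 ± 0.11 in Sham (SD, n = 3 each). That of Rpl22l1 to Rpl22 was -2.65 ± 0.10, -2.98 ± 0.37, -2.79 ± 0.62 and -2.70 ± 0.68 in I/R+B12, I/R, Sham+B12 and Sham. That of Rps4l to Rps4x was -3.83 ± 0.09, -3.91 ± 0.28, -3.84 ± 0.43 and -3.66 ± 0.69, and that of Rpl36al to Rpl36a was -0.21 ± 0.08, -0.28 ± 0.09, -0.20 ± 0.09 and -0.23 ± 0.22. Rpl39 ranged from 169.8 to 326.8 FPKM, while its testis-enriched paralog Rpl39l reached at most 0.37 FPKM.

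**Figure D5:**
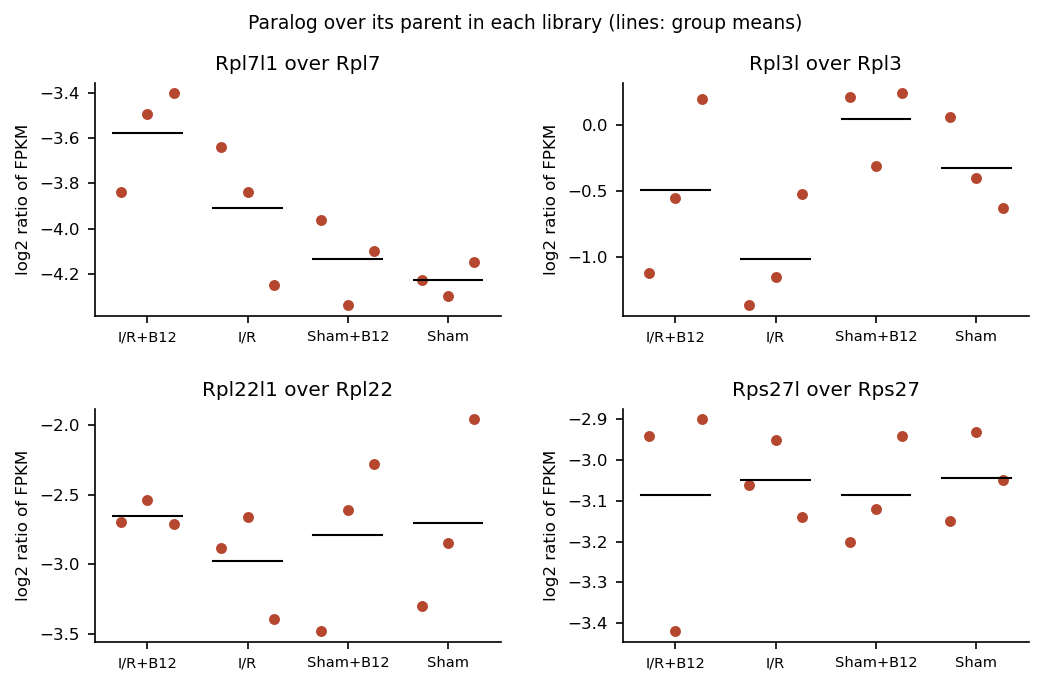
Log2 ratio of FPKM of 4 paralogs to their parent gene in each library, with a line at each group mean. The 3 I/R+B12 points of Rpl7l1 over Rpl7 lie above all Sham+B12 points, while I/R+B12 and Sham+B12 points overlap in the other 3 panels.

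Ribosomal protein genes are common reference genes in quantitative PCR, and 9 of them were looked at for that reason. All 9 had a positive difference in I/R+B12 against Sham+B12 (median 0.23), where 48.1% of all genes had one. None was called, and 2 of 9 were higher at an unadjusted p under 0.05, where 17.3% of all genes were. In I/R against Sham 8 of 9 were positive (median 0.19, none called), where 69.1% of all genes were (median 0.13). Rplp0 had 1002, 1115 and 1098 FPKM in the I/R+B12 hearts, 1085, 1011 and 807.7 in I/R, 822.0, 971.1 and 861.9 in Sham+B12, and 843.7, 961.5 and 875.7 in Sham. Its I/R+B12 libraries lay above all Sham+B12 libraries (0.28, SE 0.13, adjusted p 0.157). Rpl13a had 1550, 1600 and 1568 FPKM in I/R+B12, against 1198, 1659 and 1224 in Sham+B12, and the groups overlapped (0.23, SE 0.21, adjusted p 0.477). Rps13 was the exception, with a difference of -0.24 in I/R against Sham.

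Of 58 genes of ribosome biogenesis 48 were positive in I/R+B12 against Sham+B12 (median 0.40), 14 were called higher and 1 lower, where 6.78% and 3.62% of all genes were. Taf1d, a subunit of the RNA polymerase I selectivity factor, had a difference of 1.58 (SE 0.33, adjusted p 0.0254) and Nolc1, a nucleolar phosphoprotein, one of 1.06 (SE 0.23, adjusted p 0.0265). Taf1a, another subunit of the same factor, was the 1 called lower (-1.33). Chosen after their values were seen, Nop58 at 1.58, Nop56 at 0.78 and Fbl at 0.70, which are proteins of the box C/D particles that methylate ribosomal RNA, were among those called higher. In I/R against Sham 56 of the 58 were positive (median 0.28) and 0 were called, where 69.1% of all genes were positive (median 0.13).

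Scored like the markers, biogenesis genes stood at 0.25, 0.31 and -0.08 in the I/R+B12 hearts, 0.38, 0.28 and -0.09 in I/R, -0.27, -0.24 and -0.21 in Sham+B12, and -0.21, -0.18 and 0.06 in Sham. The libraries I/R+B12 3 and I/R 3 were the low ones of their groups, as they were for neutrophil markers, and Sham 3 was the high one of its group. For the cytosolic ribosomal proteins I/R 3 was again the low one of its group, but the low one of I/R+B12 was replicate 1, and Sham 2, not Sham 3, was high. Other values also differed between injured and sham libraries, not always in the same direction under B12 and on normal water. In I/R+B12 against Sham+B12, 5 of 13 neutrophil markers were called higher (median 2.73) and 2 of 14 resident macrophage markers lower (median -0.81). Of 10 endothelial markers 3 were called higher (median 0.18), with 7 positive and 3 negative. Among all genes 6.78% were called higher and 3.62% lower. Of the other lists, the medians were 1.33 over 12 monocyte markers, -0.54 over 12 fibroblast and -0.27 over 14 cardiomyocyte markers. Only part of each remaining list was tested. The medians were -0.31 over 4 of 12 B and T lymphocyte, -0.16 over 5 of 7 erythroid and 0.01 over 5 of 8 atrial markers. Over 15 of 18 cell cycle genes the median was -0.06. The 12 lymphocyte markers were low, with summed levels of 3.18 to 6.98 FPKM in I/R+B12. The smallest p of the marker lists were those of Il1r2 (4.63) and Retnlg (5.13) for neutrophils, Cd14 (2.72) and Ly6c2 (1.62) for monocytes, Cbr2 (-1.91) and Folr2 (-1.16) for resident macrophages, and Pecam1 (0.63) and Cldn5 (1.35) for endothelium. Of these 8, Ly6c2 alone was not called (adjusted p 0.0577). For the other lists they were those of Fbln1 (-0.76), Gsn (-0.53), Mybpc3 (-0.85), Pln (-0.58), Ighm (-1.56), Trac (-0.39), Hbb-bt (-0.35), Hba-a1 (-0.19), Stard10 (-0.29), Dkk3 (-0.52), Pcna (0.63) and Tyms (0.62), and Pcna was the 1 called. Summed neutrophil markers were at 291.4 to 3332 FPKM in I/R+B12 and 8.47 to 45.86 FPKM in Sham+B12. In I/R against Sham none of these genes was called. The medians were 1.88 over neutrophil, 1.38 over monocyte, 0.37 over resident macrophage, 0.25 over endothelial and 0.13 over fibroblast markers. They were -0.28 over cardiomyocyte, 0.16 over lymphocyte, 0.00 over erythroid and -0.27 over atrial markers, and 0.66 over cell cycle genes. All 14 resident macrophage markers and all 15 cell cycle genes were positive, where 69.1% of all genes were. The part of infiltrating cells in the ribosomal differences was not tested.

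Of 39 cytosolic translation factors 5 were called higher and 1 lower in I/R+B12 against Sham+B12 (median 0.17), where 6.78% of all genes were called higher and 3.62% lower. Eif5, which helps the ribosome settle on the start codon, had a difference of 1.25 (SE 0.21, adjusted p 0.0184). The lower one was Eef1a2, the elongation factor isoform of muscle and neurons (-1.04, SE 0.22, adjusted p 0.0259). Of 16 regulators of TOP messages and growth, Larp4, a protein that binds poly(A) tails, was the 1 called (0.77, SE 0.20, adjusted p 0.0378), and Max, the partner of Myc, was at 0.55 (SE 0.17, adjusted p 0.0634).

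In I/R+B12 against Sham+B12 the median was -0.38 over 16 mitochondrial translation factors. It was -0.36 over 30 genes of mitochondrial ribosome assembly and RNA, among them the transcription genes Tfam and Polrmt. It was -0.40 over 17 mitochondrial tRNA ligases, against -0.18 over the 75 ribosomal members. Called lower were 1, 3 and 3 of these genes, where 3.62% of all genes were, and 0 were called higher. Tsfm, the mitochondrial elongation factor Ts, was at -0.57 (SE 0.15, adjusted p 0.0420), Rpusd4, a pseudouridine synthase of mitochondrial RNA, at -0.87 (SE 0.22, adjusted p 0.0354), and Aars2, the mitochondrial alanyl-tRNA synthetase, at -0.75 (SE 0.18, adjusted p 0.0333). Next in p were Mtif3, a mitochondrial initiation factor (-0.79, adjusted p 0.0507), Fastk (-0.60, adjusted p 0.0406) and Ears2, the mitochondrial glutamyl-tRNA synthetase (-0.79, adjusted p 0.0353). The library I/R+B12 2 was the lowest in all 3 lists, with scores of -0.57, -0.64 and -0.61, and I/R+B12 1 lay at 0.01, 0.00 and 0.08. As for the ribosomal proteins, the 3 I/R+B12 hearts were thus uneven. In I/R against Sham the medians of the 3 lists were -0.06, -0.03 and -0.16, against 0.13 over all genes, with 0 genes called.

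A few ribosomal proteins carry symbols outside the rule and were looked at apart. Of the 5 tested cytosolic ones 4 were positive in I/R+B12 against Sham+B12 (median 0.13, none called), with Rpl36al, a close relative of Rpl36a, at 0.44 (SE 0.14, adjusted p 0.0657) and Rpl9-ps6 at 0.72 (SE 0.46, adjusted p 0.293). Of the 9 mitochondrial ones 6 were negative (median -0.14, none called), with Ptcd3, a small subunit protein, at -0.44 (SE 0.16, adjusted p 0.0875) and Gadd45gip1 at -0.27 (SE 0.12, adjusted p 0.159). The median of each set had the sign of its class.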

How the data were processed

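Heart RNA of 12 mice was sequenced from poly(A)-selected, paired-end libraries, per the labels' protocols. The authors deposited FPKM per gene, and HISAT2, StringTie and build mm10 are named in the submitters' processing notes without roles or versions. The authors' group means were not used. Depth is not given. It was estimated from the steps between low values, which came closest to whole fragments (71.5% to 78.9% of values within 0.15) when 250 to 285 nt were subtracted from transcript length, and 33.8% to 43.0% without that. The FPKM therefore behave as if scaled to an effective length, which affects levels of short members most. Coordinates and lengths (median over basic transcripts) came from GENCODE M21, which holds 55141 of the table's IDs.

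The values were taken as log2(FPKM + 1), a scale that understates differences of low genes, and all 12 libraries were fitted with limma 3.58.1 (R 4.3.3, variance trend, 5 contrasts, two-sided, Benjamini-Hochberg over 13001 genes, threshold 0.05). The fit was tested on simulated data. Class medians and counts carry no test. The labels give no batch. Exons overlapped those of another gene in 39 of 83 cytosolic and 31 of 75 mitochondrial members. Named per contrast and class were up to 6 called members in each direction or, where under 3 were called, the 3 with the smallest p. Named too were the 3 extremes of level and spread per class, the paralog pairs, the PCR reference genes and the 2 genes with the smallest p of each other list; non-overlapping members were named after their values were seen. Members, lists and tests were chosen with earlier results of these data known. Alternatives were other pseudocounts (0.1, 0.5), filters, scalings, library weights, a replicate block, the compared groups alone, libraries left out and, chosen after seeing the data, removal of the length trend and further left-out libraries. Promoters and start regions are from RefSeq (GRCm38.p6). Figures were drawn with matplotlib 3.10.9.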

Additional observations from a re-analysis of the deposited data

Results flagged for a closer look

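Mrpl24 differed in opposite directions on the 2 kinds of water, with no overlap of libraries in either. It was lower in I/R+B12 than in Sham+B12 (-0.42, with 47.0, 32.3 and 38.8 FPKM against 49.6, 53.9 and 53.9 FPKM) and higher in I/R than in Sham (0.16, with 52.6, 58.4 and 53.8 FPKM against 48.4, 52.4 and 46.4 FPKM). Neither difference was called by limma (adjusted p 0.0651 and 0.628), and the interaction was -0.58 (SE 0.19, adjusted p 0.387). The cause was not tested.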

How the results depend on the processing

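Of 6696 single-member differences recomputed under the alternatives (54 members), 0 reversed a called direction, 66 lost a call and 74 gained one. The 6 called members kept their sign under all 25 alternatives. Rpl7l1 stayed called in 19 of them (0.78 to 1.00) and Rpl5 in 17, but Rpl12 in 11, Mrpl34 in 13, and Mrpl36 and Mrps27 in 12 each. The counts of called members in I/R+B12 against Sham+B12 (3 cytosolic, 3 mitochondrial) were 0 and 0 with no filter on low values, where more genes were tested, and 0 and 0 with the compared groups alone, where fewer libraries set the spread. They were 7 and 11 with library weights and 12 and 8 with the trend over transcript length removed, which was chosen after seeing the data. The mitochondrial count was 9 with median-ratio scaling, with or without the members in the factors, 10 with quantile normalization and 0 with nuclear genes alone. Library weights also called 46 cytosolic and 17 mitochondrial members in I/R against Sham, 2 and 8 with B12 among injured hearts, and 4 mitochondrial members in the interaction. The share of all genes called with library weights was 33.9%, 33.3% and 14.1% in these 3 comparisons, and 23.7% in I/R+B12 against Sham+B12. For these changes the cause was not tested. Beside the counts under the other alternatives, here and below, the share of all genes called is not given.

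Median-ratio scaling moved the median of all genes from 0.13 to 0.00 in I/R against Sham and from -0.21 to 0.00 between I/R+B12 and I/R. The mitochondrial median was then -0.14 in I/R against Sham, and -0.12 with the length trend removed. Between I/R+B12 and I/R the medians were 0.19 (cytosolic) and 0.11 (mitochondrial) with median-ratio scaling, and the mitochondrial one was -0.02 with quantile normalization and 0.07 without the length trend. The mitochondrial interaction was -0.01 and -0.02 with median-ratio scaling and without the length trend. The GC box was found in 43.8% of cytosolic promoters in a window of 100 bases before to 50 after the start, a shorter stretch.

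Leaving out 1 library gave 0 to 3 called cytosolic and 0 to 15 called mitochondrial members in I/R+B12 against Sham+B12, 0 to 10 mitochondrial between I/R+B12 and I/R and 0 to 5 in the interaction, with the highest mitochondrial counts without I/R+B12 1. The cytosolic median stayed at 0.21 to 0.42 in I/R+B12 against Sham+B12 and 0.12 to 0.42 in I/R against Sham over all alternatives, and the mitochondrial one in I/R+B12 against Sham+B12 at -0.29 to -0.08. Over all tested genes, deviations from the group mean were not correlated on average between same-number libraries (mean r of 0.01 over 18 pairs, -0.41 to 0.39). This average over all genes cannot decide whether the members alone share an effect of replicate number, which was not tested. The cytosolic mean centred level was highest in replicate 2 of I/R+B12, Sham+B12 and Sham (0.20, 0.08 and 0.23). In I/R it was highest in replicate 1 (0.29, against 0.26 in replicate 2). A fit with the replicate block called 7 cytosolic and 1 mitochondrial members in I/R+B12 against Sham+B12.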
